A study of Rattus norvegicus with 24 samples.

Results

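The left carotid bodies (CBs) of spontaneously hypertensive rats (SHR/NHsd) and of normotensive Wistar-Kyoto rats (WKY/NHsd) are compared here at the level of polyadenylated RNA. They are 12 of the 24 libraries of the series, 6 from WKY and 6 from SHR, and were taken as every library that the sample labels call left. Each left library came from a different male rat of 12 to 14 weeks, so the rats are the replicates. None of the rats received a treatment according to the labels, and both strains were perfused with ice-cold saline before the CBs were dissected under a microscope. Both strains are inbred, so the groups differ by their whole genetic background as well as by blood pressure, and the 2 cannot be told apart here. A whole CB holds several cell types, and in such bulk RNA a change in the number of cells of a type and a change in the RNA per cell cannot be told apart either.

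The CB is a small sense organ at the fork of the common carotid artery. Its glomus cells detect low oxygen, high carbon dioxide, acid and circulating factors, and release transmitters onto the endings of the carotid sinus nerve, which drives breathing and sympathetic outflow. They are neuroendocrine cells that store catecholamines and peptides in granules with chromogranins, and they lie among glia-like supporting cells, a dense capillary bed, connective tissue, macrophages and nearby nerve cells. Receptors on glomus cells and on the vessels tune this output, and CB output is raised in SHR.

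Left libraries held 9695625 to 11372821 counts in WKY and 9198341 to 12503650 in SHR, so depth was alike in both strains. Of 32623 genes, 21362 had a count in a left library and 14223 had a mean normalized count above 10 and were tested. Glomus cell RNA was present throughout: Chgb, which encodes a chromogranin of the secretory granule, was at 488 to 606 CPM (counts scaled by library size) in WKY and at 502 to 953 CPM in SHR. Levels are in CPM and are compared between rats for the same gene, since they are not corrected for gene length. Gene symbols were available for 1273 identifiers, 1263 of them tested. They came from the upper end of a table ordered by the strain difference over both sides, so almost all named genes lie on the SHR side: only 16 of the 1263 had a log2 fold change below 0 in left CBs. The direction of a named gene is therefore no finding, and the number of genes called in a list is read against the share of all named genes that were called, not against that of all genes.

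On the first principal component of the 500 most variable genes, which held 45.5% of the variance, the strains were apart. WKY scores ran from -8.94 to -4.18 and SHR scores from 1.504 to 8.62, with no overlap (exact permutation test, two-sided, p = 0.00216, the smallest that 6 against 6 allows). A pair of libraries stood away from their groups. WKY rat 33 had a second component score of -12.5 against -0.585 to 4.41 in the other WKY rats, and SHR rat 30 had the SHR score nearest to WKY on the first component. Without WKY rat 33 the first component still separated the strains (p = 0.00433, exact permutation test).

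**Figure D1:**
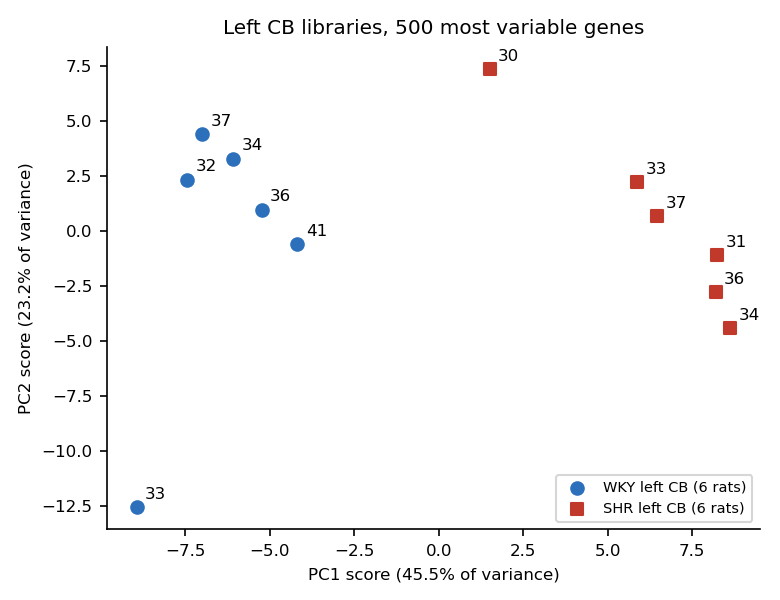
Scores of the 12 left CB libraries on the first and second principal components, in arbitrary units, with WKY as circles, SHR as squares and the rat's number beside each point. All WKY rats lie below -4 and all SHR rats above 1 on the first component, and WKY rat 33 lies alone at -12.5 on the second.

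Between the strains, 1292 of 14223 genes (9.08%) passed the quasi-likelihood test of edgeR at a Benjamini-Hochberg adjusted p under 0.05. Of these, 672 (4.72% of the genes tested) were higher in SHR and 620 (4.36%) were lower. Most differences were small: the median absolute log2 fold change of the called genes was 0.50, and 237 genes differed at least 2-fold, 116 upward and 121 downward. In 693 genes (4.87%) every rat of one strain lay beyond every rat of the other, and SHR was above in 333 of them (2.34% of the genes tested). Among the 1263 named genes, 496 (39.3%) were called higher in SHR and 0 lower, and in 246 (19.5%) all SHR rats lay above all WKY rats. Without WKY rat 33 the test called 997 genes, 955 of them among the 1292, and without SHR rat 30 it called 1630, which included 1186 of the 1292.

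The named genes with the greatest difference came from several families. Chodl, a C-type lectin-like membrane protein, was at 3.24, 4.32 and 5.55 CPM (lowest, median and highest) in WKY and at 51.2, 58.2 and 79.5 CPM in SHR. All SHR rats were far above all WKY rats, with a log2 fold change of 3.79 ± 0.14 (SE, n = 6 and 6; edgeR adjusted p = 3.55e-13). Cdh9, a cadherin that joins cells to each other, rose from 10.3, 12.1 and 14.3 CPM in WKY to 66.2, 79.5 and 83.5 CPM in SHR, by 2.66 ± 0.10 on the log2 scale (SE, edgeR adjusted p = 3.55e-13). Clic2, of the chloride intracellular channel family, rose by 2.38 ± 0.13 (SE, edgeR adjusted p = 1.87e-10), from 10.7, 14.1 and 16.5 to 57.4, 70.6 and 89.0 CPM. The groups did not overlap for either gene. Further symbols of this set are low or uncharacterised: LOC100360940 rose by 3.89 ± 0.35, LOC360919 by 2.92 ± 0.47 and Thsd7b by 2.37 ± 0.45 on the log2 scale (SE, edgeR adjusted p of 4.52e-06, 0.000422 and 0.00324). The last 2 were low genes, with WKY medians of 0.473 and 1.20 CPM, and their lowest SHR rats, at 1.52 and 2.51 CPM, lay close above the highest WKY rats, at 1.22 and 2.43 CPM.

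**Figure D2:**
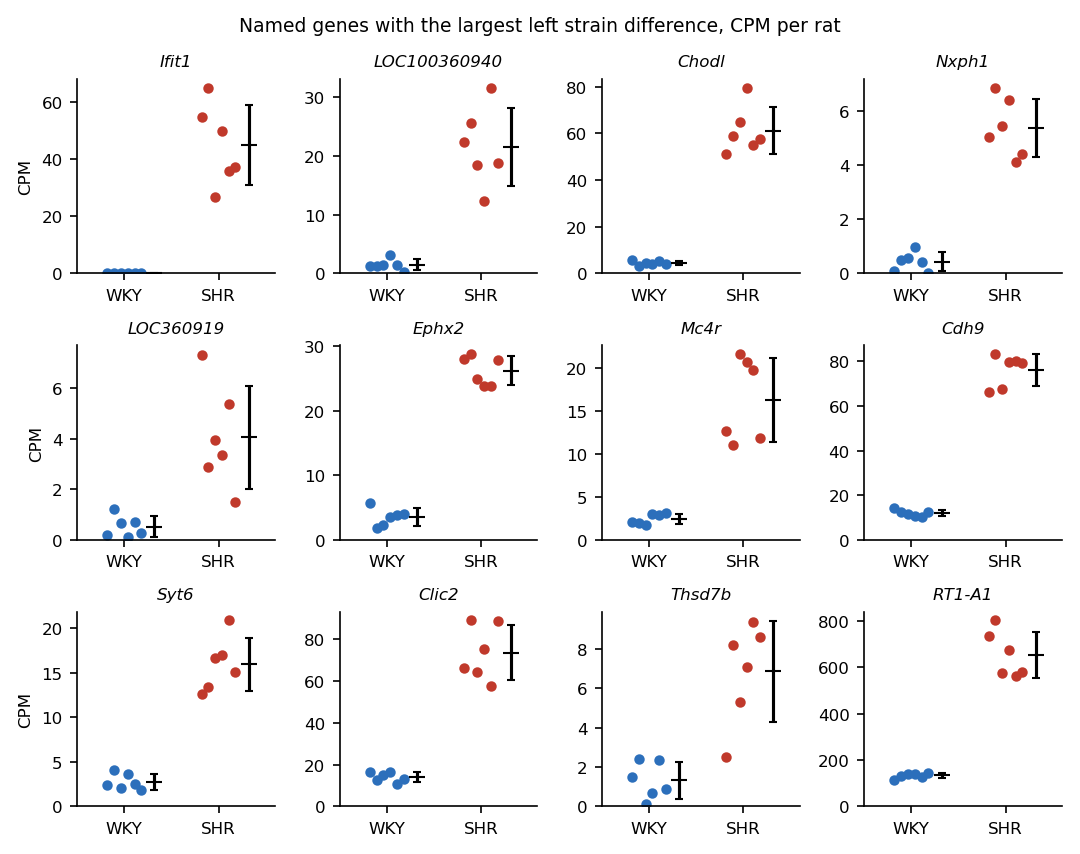
CPM in each left CB library (points, 6 WKY rats and 6 SHR rats) of the 12 named genes with the largest strain difference among those called and not overlapping, with mean and SD beside the points and a linear axis from 0. In each panel every SHR rat lies above every WKY rat, and Ifit1 lies at 0 to 0.292 CPM in WKY and 26.8 to 64.7 CPM in SHR.

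G protein-coupled receptors let peptides, amines and lipids act on glomus cells and vessels. Of 42 receptors listed, 31 had a symbol and were tested, and 15 of them were called higher in SHR, beside 39.3% of all named genes. The median log2 fold change was 0.48 over the 31 and 0.44 over all named genes. Mc4r, the melanocortin receptor through which the brain restrains feeding and raises sympathetic tone, was at 1.75, 2.49 and 3.09 CPM in WKY and at 11.1, 16.2 and 21.7 CPM in SHR. The strains were clear of each other, and Mc4r rose by 2.72 ± 0.22 on the log2 scale (SE, edgeR adjusted p = 4.29e-08). Agtr2, the type 2 angiotensin receptor, which opposes many actions of the type 1 receptor, was at 166, 175 and 211 CPM in WKY and 377, 419 and 504 CPM in SHR. Its log2 fold change was 1.29 ± 0.08 (SE, edgeR adjusted p = 1.65e-09), with no overlap. Sstr2, an inhibitory somatostatin receptor, rose from 17.9, 21.3 and 24.0 to 33.7, 39.1 and 53.4 CPM (log2 fold change 0.96 ± 0.12, SE, edgeR adjusted p = 1.33e-05). Sctr, the secretin receptor, was scarce in both strains, at 1.13 to 2.52 CPM in WKY and 4.04 to 5.86 CPM in SHR, and rose by 1.51 ± 0.23 (SE, edgeR adjusted p = 0.00025). Neither overlapped between strains. The other receptors called were Gpr61, Lpar3, Chrm1, Ptgfr, Sstr1, Adrb1, Avpr1a, Vipr2, Npy1r, Cnr1 and Ptgir, named after their values were seen, with log2 fold changes from 0.38 to 2.18.

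Glp1r, Insr and Gipr carry no symbol in the part of the table read here, and each was identified as the 1 gene for which DESeq2, run on 23 libraries, gave the fold change and adjusted p that the study prints for it. The left libraries are among those 23, so these differences describe the genes rather than test them anew. Glp1r, the receptor of the gut hormone GLP-1, was at 5.84, 10.01 and 11.7 CPM in WKY and at 0, 0.543 and 0.948 CPM in SHR, with 57 to 132 counts in WKY libraries and 0 to 9 in SHR libraries. It fell by 4.15 ± 0.37 on the log2 scale (SE, edgeR adjusted p = 2.19e-07). Insr, the insulin receptor, fell by 0.81 ± 0.11 from 70.2, 78.3 and 79.3 to 34.5, 42.6 and 55.2 CPM (SE, edgeR adjusted p = 3.41e-05). For both genes the strains were apart. Gipr, the receptor of the incretin GIP, overlapped between strains, at 10.03 to 20.4 CPM in WKY and 6.49 to 11.5 CPM in SHR, and fell by 0.75 ± 0.19 (SE, edgeR adjusted p = 0.0146).

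Of 25 glomus cell genes listed, 8 had a symbol, and 4 of the 8 were called higher in SHR, with a median log2 fold change of 0.48. With 8 genes this count is near the 39.3% of all named genes and is no result about the list. Cartpt, the precursor of the CART neuropeptides, went from 14.9, 17.5 and 21.6 CPM to 31.96, 43.6 and 68.2 CPM, a log2 fold change of 1.30 ± 0.16 without overlap (SE, edgeR adjusted p = 2.83e-05). Ret, the receptor tyrosine kinase of the GDNF family, rose by 0.71 ± 0.11 (SE, edgeR adjusted p = 0.000413), also with the strains apart. Chgb was called only narrowly, at 488, 579 and 606 CPM in WKY and 502, 779 and 953 CPM in SHR (log2 fold change 0.45 ± 0.13, SE, edgeR adjusted p = 0.0367), and the lowest SHR rat lay inside the WKY range. The related Chga had a log2 fold change of 0.38 ± 0.11 (SE, edgeR adjusted p = 0.0392). Dbh, which makes noradrenaline from dopamine, did not pass (log2 fold change 0.50 ± 0.16, SE, edgeR adjusted p = 0.0657), with 18.3 to 34.9 CPM in WKY and 27.7 to 46.3 CPM in SHR. The count of 4 ran from 2 to 5 with any 1 rat left out, and was 2 with voom and 2 without WKY rat 33 or 34 or SHR rat 31, 33, 34 or 36. The summed CPM of the 8 genes was 1108 to 1390 in WKY and 1249 to 2124 in SHR, so the strains overlapped in that sum.

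**Figure D3:**
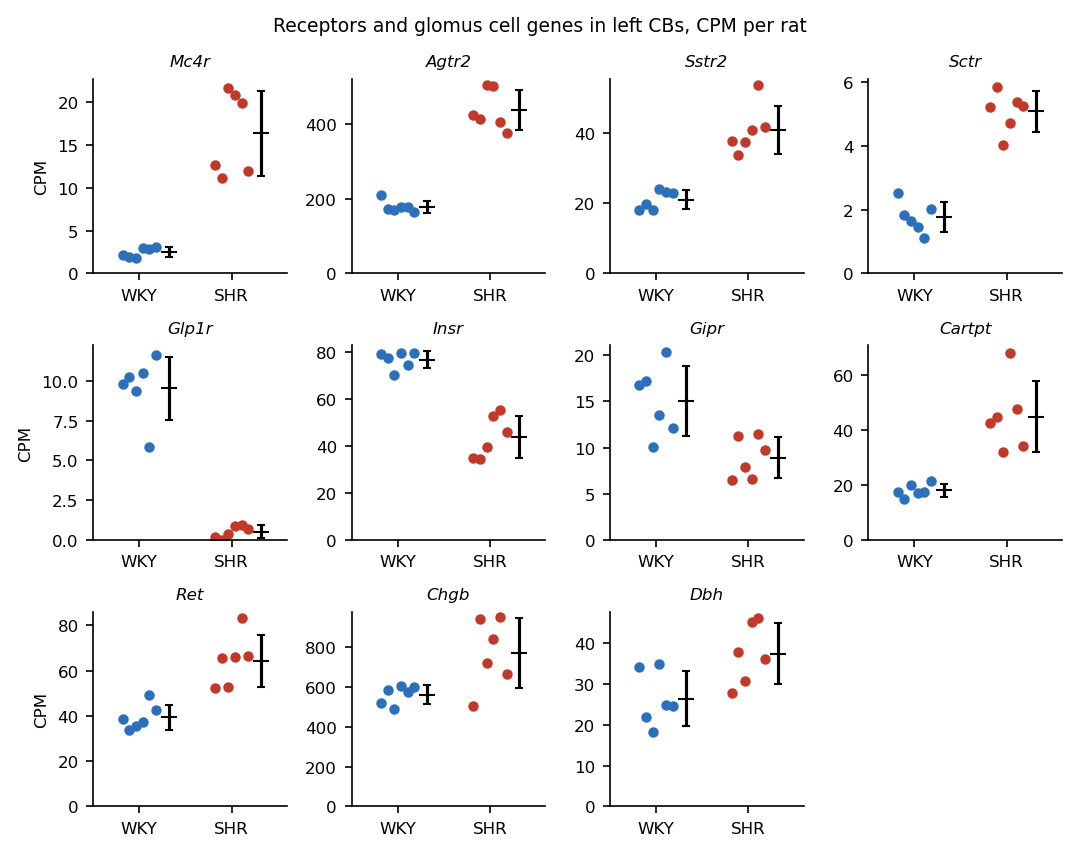
CPM in each left CB library (points, 6 WKY rats and 6 SHR rats) of 7 receptors and 4 glomus cell genes, with mean and SD beside the points and a linear axis from 0. Glp1r and Insr lie lower in every SHR rat than in any WKY rat, Mc4r, Agtr2, Sstr2, Sctr, Cartpt and Ret lie higher, and Gipr, Chgb and Dbh overlap.

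Secreted peptides and growth factors carry signals between glomus cells, vessels and nerve endings. Of 29 tested, 10 were called higher in SHR, a share close to the 39.3% of all named genes. Besides Cartpt, Il18, an inflammasome-processed cytokine, rose by 1.26 ± 0.14 (SE, edgeR adjusted p = 3.96e-06), from 12.7, 14.9 and 18.7 CPM to 25.4, 36.2 and 48.4 CPM. Fst, which binds activins and blocks them, rose by 0.59 ± 0.10, from 14.5 to 20.9 CPM in WKY to 23.7 to 28.9 CPM in SHR (SE, edgeR adjusted p = 0.000996). Il18 and Fst had no overlap. Vegfd, a growth factor of lymphatic and blood vessels, rose by 0.81 ± 0.15 (SE, edgeR adjusted p = 0.00137), with 5 of 6 SHR rats above all WKY rats.

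Genes of synapses, vesicle release and neuronal adhesion had 18 of 32 members called, beside 39.3% of all named genes, and 12 without overlap, beside 19.5%. All 32 genes listed had a symbol, and the lists were chosen with earlier results of these data known. The 2 shares therefore describe the list and do not test it. The median log2 fold change of the 32 genes, 0.47, was near the 0.44 of all named genes. Nxph1, a secreted ligand of the presynaptic adhesion molecules called neurexins, was at 0, 0.458 and 0.970 CPM in WKY and 4.11, 5.22 and 6.82 CPM in SHR, which corresponds to 0 to 10 counts in WKY libraries and 39 to 64 in SHR. Its log2 fold change was 3.62 ± 0.42 (SE, edgeR adjusted p = 8.87e-06). Nrcam, an immunoglobulin-type adhesion molecule of axons, was at 46.0, 51.4 and 53.8 CPM in WKY and 99.5, 108 and 110.4 CPM in SHR (log2 fold change 1.09 ± 0.06, SE, edgeR adjusted p = 5.17e-10). Both strains were clear of each other for these genes. Syt6, of the synaptotagmins that regulate membrane fusion, rose by 2.53 ± 0.20 (SE, edgeR adjusted p = 2.65e-08), from 1.85, 2.49 and 4.05 CPM to 12.7, 15.9 and 20.9 CPM. Cpne5, a calcium-dependent phospholipid-binding copine, rose by 2.15 ± 0.19 (SE, edgeR adjusted p = 1.55e-06), and Sytl4, which docks secretory granules, rose by 1.03 ± 0.11 (SE, edgeR adjusted p = 4.43e-06). Neither of these overlapped. Sv2b, a synaptic vesicle protein, had a log2 fold change of 0.16 and was not called.

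Channels set the excitability of glomus cells, whose background potassium current closes in low oxygen. Those called were 2 of 14 potassium channel genes, 2 of 10 ligand-gated channels, and 7 of 18 genes of sodium and calcium entry and storage. The last share was close to the 39.3% of all named genes, and the first 2 were below it. Kcnd1, a subunit of fast transient potassium current, was at 10.2, 12.4 and 14.5 CPM in WKY and 15.8, 17.8 and 24.6 CPM in SHR, a log2 fold change of 0.63 ± 0.14 (SE, edgeR adjusted p = 0.0052). Kcnt2, a sodium-activated potassium channel, had a log2 fold change of 0.91 ± 0.22 (SE, edgeR adjusted p = 0.0125). Neither overlapped between strains. Chrna3, the nicotinic subunit of autonomic ganglia, rose by 0.48 ± 0.11 (SE, edgeR adjusted p = 0.00967), from 31.5 to 40.8 CPM in WKY to 39.3 to 60.5 CPM in SHR, with overlap. Casq1, the calcium-binding protein of the muscle sarcoplasmic reticulum, rose by 1.52 ± 0.19 (SE, edgeR adjusted p = 2.39e-05). Casq1 and Trdn, a further gene of this list that was called, are also skeletal muscle markers, whose summed level was 49.3 to 67.2 CPM in WKY and 77.5 to 105 CPM in SHR, and the part of muscle tissue in these values was not tested. Without WKY rat 33 the sodium and calcium genes called fell from 7 to 3, and the number was also 3 without WKY rat 36 or SHR rat 34 and 4 without WKY rat 34 or SHR rat 37. Potassium genes called went to 4 without SHR rat 30. Ligand-gated channels called went to 1 in 9 of the 12 fits that leave out a rat, namely those without WKY rat 33, 34, 36, 37 or 41 or SHR rat 33, 34, 36 or 37.

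Lipid mediators act on vessel tone and on sensory endings. In this list 15 of 26 genes were called, beside 39.3% of all named genes, with a median log2 fold change of 0.65 beside 0.44. Of the 28 genes listed, 26 had a symbol, and as for the synapse genes these values do not test the list. Ephx2, the soluble epoxide hydrolase that breaks down vasodilator epoxides of arachidonic acid, was at 1.92, 3.69 and 5.65 CPM in WKY and 23.8, 26.5 and 28.8 CPM in SHR. It rose by 2.89 ± 0.19 on the log2 scale (SE, edgeR adjusted p = 1.65e-09), with a wide gap between the strains. Enpp2, the secreted enzyme autotaxin that makes lysophosphatidic acid, rose by 1.16 ± 0.07 (SE, edgeR adjusted p = 1.08e-09), from 338, 365 and 411 CPM to 709, 844 and 894 CPM. Lpar3, a receptor of that product, was low in both strains and rose by 2.18 ± 0.35 (SE, edgeR adjusted p = 0.00034), from 0.389 to 1.32 CPM in WKY to 1.49 to 4.92 CPM in SHR. Cd36, a fatty acid transporter of capillaries, fat cells and macrophages, rose by 1.22 ± 0.14 (SE, edgeR adjusted p = 6.62e-06), from 8.19, 11.7 and 14.4 CPM to 18.9, 29.0 and 31.5 CPM. Enpp2, Lpar3 and Cd36 showed no overlap between strains.

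Interferon response and major histocompatibility complex (MHC) genes serve antiviral defence and the display of peptides to T cells. Here 12 of 20 were called, beside 39.3% of all named genes, and in 10 the strains did not overlap, beside 19.5%. Of the 26 genes listed, 20 had a symbol, and these shares do not test the list either. The median log2 fold change of 0.44 was the same as that of all named genes to 2 decimals. Ifit1, an interferon-induced protein that binds viral RNA, was close to absent in WKY, with 0 to 3 counts in each library, against 292 to 607 counts in each SHR library. The lowest SHR library was at least 97.3-fold above a floor of 3 counts per library, and the levels were 0, 0 and 0.292 CPM in WKY and 26.8, 43.4 and 64.7 CPM in SHR (edgeR adjusted p = 3.15e-09). RT1-A1, a class I MHC gene, rose by 2.29 ± 0.09 (SE, edgeR adjusted p = 2.22e-12), from 116, 136 and 145 CPM to 562, 627 and 803 CPM. RT1-CE12, another class I gene, rose by 1.39 ± 0.24 (SE, edgeR adjusted p = 0.000762), and Tapbpl, which edits peptides on class I molecules, by 0.54 ± 0.09 (SE, edgeR adjusted p = 0.000339). No SHR rat overlapped with a WKY rat for these genes. Among class II genes, picked out after their values were seen, RT1-DOa, a chain of a class II molecule that regulates peptide loading, rose by 1.18 ± 0.22 (SE, edgeR adjusted p = 0.00153), also without overlap. Ciita, the master regulator of class II genes, and Cd74, the invariant chain, had log2 fold changes of 0.02 and 0.15 and were not called. Class I genes differ in sequence between strains, class I and Ifit genes have close copies, and how the authors treated reads matching several genes is not given in the sources used here, so their counts are uncertain.

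Promoters of this list were searched for GAAANNGAAA on both strands, the core repeat of the interferon-stimulated response element. The window was 250 bases before to 50 after the gene start in RefSeq GRCr8. It was found at 6 of the 17 list genes with a promoter in the table, and in 3.92% of all 33469 promoters. Ifit1 has no promoter in the table. Of the 6 genes, 3 were called in left CBs, beside 12 of 20 in the whole list. RT1-A1, RT1-CE12, RT1-DOa and Tapbpl were called without a match in this window. The 3 called genes with a match were Ifitm2 (log2 fold change 0.47 ± 0.08, SE, edgeR adjusted p = 0.00101), Tapbp (0.31 ± 0.08, SE, edgeR adjusted p = 0.0213) and Psmb8 (0.54 ± 0.15, SE, edgeR adjusted p = 0.0291). Their promoters are shown, chosen after these values were seen, as the reference sequence and not that of these rats. Capitals mark the matches, which overlap each other in Tapbp and lie on the opposite strand in Psmb8. A match describes the letters only.
Ifitm2 (chr1:205482299-205482598, minus strand): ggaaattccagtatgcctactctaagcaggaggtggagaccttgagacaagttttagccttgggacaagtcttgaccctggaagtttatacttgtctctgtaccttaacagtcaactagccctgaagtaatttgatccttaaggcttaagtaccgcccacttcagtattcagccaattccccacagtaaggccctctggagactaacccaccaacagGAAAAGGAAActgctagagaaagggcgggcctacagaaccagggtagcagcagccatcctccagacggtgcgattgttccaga
Tapbp (chr20:4967828-4968127, minus strand): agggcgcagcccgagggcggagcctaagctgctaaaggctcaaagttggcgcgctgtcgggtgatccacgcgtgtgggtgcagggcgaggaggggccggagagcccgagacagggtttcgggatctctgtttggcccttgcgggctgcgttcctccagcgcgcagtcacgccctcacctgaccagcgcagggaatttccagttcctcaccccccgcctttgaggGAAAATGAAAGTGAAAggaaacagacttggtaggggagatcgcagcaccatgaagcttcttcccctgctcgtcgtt
Psmb8 (chr20:4656982-4657281, minus strand): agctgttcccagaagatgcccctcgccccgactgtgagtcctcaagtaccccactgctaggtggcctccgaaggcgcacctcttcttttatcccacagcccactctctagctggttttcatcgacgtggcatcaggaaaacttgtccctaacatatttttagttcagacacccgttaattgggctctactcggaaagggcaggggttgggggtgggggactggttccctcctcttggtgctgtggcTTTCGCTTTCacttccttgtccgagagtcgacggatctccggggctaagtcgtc

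Several lists mark other cells that a dissected CB can hold, and summed levels of their named markers were higher in SHR by the way names were assigned. Macrophage markers had 10 of 27 members called, close to the 39.3% of all named genes, led by complement genes that tissue macrophages secrete: C1qa rose by 0.71 ± 0.12 (SE, edgeR adjusted p = 0.000809) and C1qb by 0.75 ± 0.14 (SE, edgeR adjusted p = 0.00175). The sum over the 27 markers was 631 to 772 CPM in WKY and 745 to 1155 CPM in SHR, and Cd163, a scavenger receptor of resident macrophages, did not pass (log2 fold change 0.90 ± 0.37, SE, edgeR adjusted p = 0.144). Lymphocyte markers had 1 of 16 called, beside 39.3% of all named genes. It was Sidt1, at a log2 fold change of 0.91 ± 0.13 (SE, edgeR adjusted p = 0.000102), while the T cell coreceptor gene Cd4 had 0.43 ± 0.17 (SE, edgeR adjusted p = 0.133). The lymphocyte count was 2 without WKY rat 37 or SHR rat 30 or 34. Of 6 mast cell markers 3 were called by edgeR and 1 by voom, beside 39.3% of all named genes by edgeR. All 3 are proteases: Cpa3 was at 0.0883 to 0.779 CPM in WKY and 0.112 to 4.37 CPM in SHR, and Cma1 and Mcpt1l1 also overlapped between strains. The mast cell calls fell to 0 without WKY rat 32 or 36, and to 1 without WKY rat 33 or SHR rat 31 or 37.

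Nerve cell genes had 4 of 8 members called by edgeR, 7 by DESeq2 and 6 by voom, beside 39.3% of all named genes by edgeR. Prph, an intermediate filament of peripheral neurons, was at 203, 220 and 264 CPM in WKY and 337, 352 and 419 CPM in SHR, and rose by 0.70 ± 0.08 without overlap (SE, edgeR adjusted p = 6.36e-06). The sum of the 8 genes was 439 to 540.5 CPM in WKY and 650 to 837 CPM in SHR. Its direction and that of the synapse genes above were both set by the way names were assigned. The part of nerve cells in the synapse values was not tested. Genes listed as markers of neighbouring tissue were detected. Their summed level was 188 to 241 CPM in WKY and 239 to 354 CPM in SHR for adipocyte genes, and 29.4 to 47.1 CPM in WKY and 52.1 to 68.7 CPM in SHR for thyroid, parathyroid and epithelial genes. The latter sum and that of the skeletal muscle genes above did not overlap between strains, and the part of such tissue in the other results was not tested. Among the defining markers, Tg, the thyroid hormone precursor, was at 0.097, 0.408 and 10.7 CPM in WKY and 0.459, 2.19 and 8.53 CPM in SHR, and Adipoq, which only fat cells make, was at 0 to 0.512 CPM in WKY and 0 to 6.94 CPM in SHR. Neither gene passed (edgeR adjusted p of 0.803 and 0.0996). The adipocyte sum was mostly Aoc3 and Lpl, with WKY medians of 134 and 43.1 CPM beside 219 CPM for the whole sum. That sum is therefore no measure of fat cells alone. Of 10 thyroid, parathyroid and epithelial genes 4 were called, of 15 skeletal muscle genes 4, and of 9 adipocyte genes 3, the last being Cd36, Lpl and Aoc3. None of these shares is clearly above the 39.3% of all named genes, so they are no result about the lists. Epcam, an epithelial adhesion molecule, rose by 1.06 ± 0.21 (SE, edgeR adjusted p = 0.00323). Skeletal muscle calls dropped to 2 without WKY rat 33, 34 or 36 or SHR rat 31 or 34, and adipocyte calls rose to 5 without SHR rat 36. The only glial marker with a symbol, Pmp2, was not called, and 0 of the hepatocyte and erythroid markers had a symbol, so those cells could not be assessed.

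The vessels and connective tissue of the CB were covered by 3 lists. Of 13 endothelial genes 6 were called, near the 39.3% of all named genes, with a median log2 fold change of 0.28. Dll4, the Notch ligand of sprouting endothelium, rose by 0.64 ± 0.12 (SE, edgeR adjusted p = 0.00159), and Flt4, the receptor of Vegfd on lymphatic endothelium, was not called. Of 14 smooth muscle genes 3 were called, a smaller share than among all named genes, and Acta2, smooth muscle actin, was at 116, 288 and 356 CPM in WKY and 197, 366 and 436 CPM in SHR with broad overlap (edgeR adjusted p = 0.553). Matrix genes had 14 of 26 members called, beside 39.3% of all named genes. Of the 29 genes listed, 27 had a symbol, and this share too does not test the list. Loxl1, which crosslinks elastin, rose by 0.77 ± 0.11 (SE, edgeR adjusted p = 0.000136), from 24.3, 34.3 and 35.6 CPM to 44.4, 56.2 and 70.2 CPM, and Dkk3, a secreted glycoprotein of the Dickkopf family, rose by 0.44 ± 0.07 (SE, edgeR adjusted p = 0.000594). Neither overlapped between strains. Matrix calls fell to 9 without WKY rat 37 or SHR rat 37.

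Mitochondrially encoded genes and some genes often used as references were among the calls. Mitochondrially encoded transcripts had 5 of 6 members called, beside 39.3% of all named genes: ND1 was at 5453, 6093 and 6543 CPM in WKY and 7415, 7559 and 9438 CPM in SHR, a log2 fold change of 0.40 ± 0.08 (SE, edgeR adjusted p = 0.00271). ND6 had 0.52 ± 0.07 (SE, edgeR adjusted p = 0.000102), and both genes were clear of overlap. The count was 3 without WKY rat 33, 34 or 36 or SHR rat 34. Of the 13 mitochondrial genes listed, 6 had a symbol. In right CBs 0 of these 6 were called, beside 28.3% of all named genes there. Of 12 housekeeping genes listed, 6 had a symbol here and 5 of these were called, beside 39.3% of all named genes. The 6 are mostly those on the SHR side, by the way names were assigned. Among them, Rpl30, a ribosomal protein gene, rose by 1.52 ± 0.10 (SE, edgeR adjusted p = 6.45e-09), from 49.2, 54.4 and 68.4 CPM to 128, 169 and 197 CPM. Eno1, a glycolytic enzyme gene, rose by 0.68 ± 0.08 (SE, edgeR adjusted p = 8.87e-06). Such genes have many processed copies in the genome, so these counts are uncertain. Actg1, cytoplasmic gamma-actin, was not called (edgeR adjusted p = 0.687).

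Genes that respond to glucocorticoids and to the time of day had 0 of 14 members called by edgeR, beside 39.3% of all named genes. DESeq2 called 1, and edgeR called 1 without SHR rat 33. Fkbp5, a glucocorticoid-induced chaperone, was at 39.8, 55.8 and 88.0 CPM in WKY and 26.8, 77.4 and 154 CPM in SHR, and the SHR rats spanned the whole WKY range. The sum of the 14 genes ran from 305 to 730.2 CPM in WKY and from 352 to 1220 CPM in SHR. Immediate early and stress genes had 4 of 13 called, beside 39.3% of all named genes. Among the 4 was Plaur, the urokinase receptor, with 0.82 ± 0.18 (SE, edgeR adjusted p = 0.00643), while Jun had 0.33 ± 0.22 (SE, edgeR adjusted p = 0.414).

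**Figure D4:**
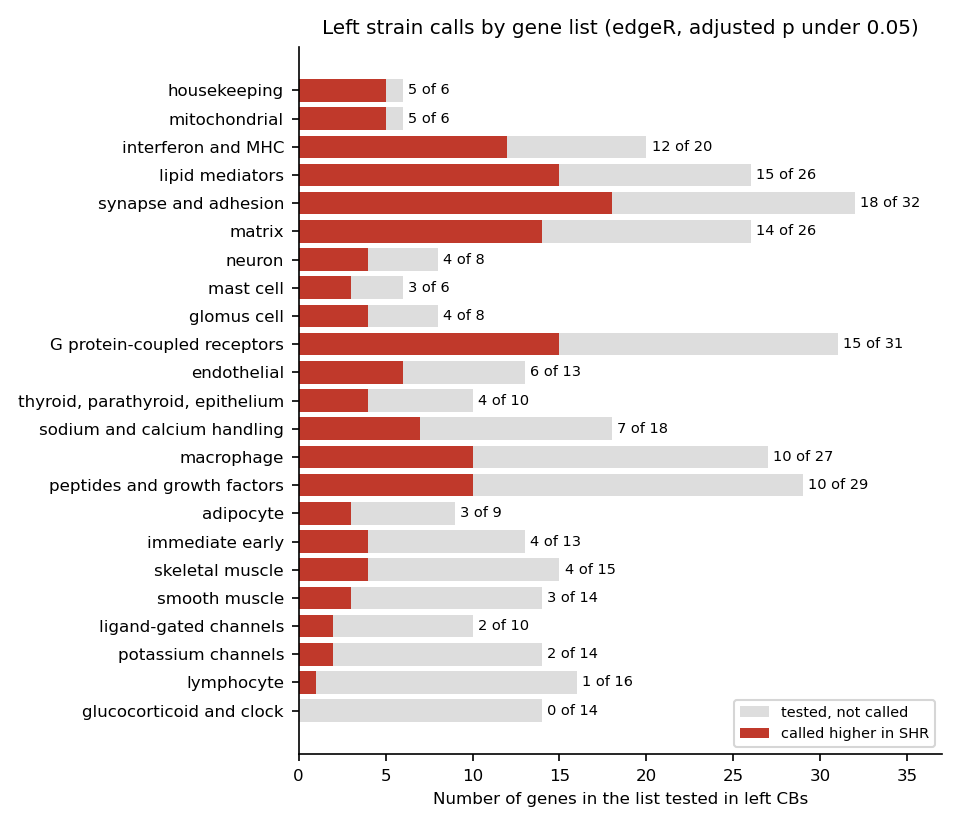
Number of genes tested in left CBs (whole bar) and number called higher in SHR (red) in each gene list with at least 5 genes tested, ordered by the share called. The share runs from 0 of 14 glucocorticoid and clock genes to 5 of 6 mitochondrial and 5 of 6 housekeeping genes, beside 39.3% of all named genes.

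Most genes lower in SHR have no symbol here. The 2 largest falls without overlap, beside Glp1r, were in ENSRNOG00000060949, at 15.7, 17.5 and 19.6 CPM in WKY and 0.224, 0.581 and 1.05 CPM in SHR, and in ENSRNOG00000061943, at 2.83, 4.14 and 4.86 CPM in WKY and 0, 0.0399 and 0.551 CPM in SHR. The log2 fold changes were -4.91 ± 0.23 and -4.80 ± 0.53 (SE, edgeR adjusted p of 1.8e-11 and 3.96e-06). In the other direction, ENSRNOG00000032518 was at 0 counts throughout WKY and at 18 to 49 counts throughout SHR, at least 6-fold above a floor of 3 counts per library. ENSRNOG00000018045 had 0 or 1 count in WKY libraries and 12 to 43 in SHR libraries, at least 4-fold above the same floor. All 4 genes separated the strains on the left.

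The right CBs of the same rats, without the right library of SHR rat 34, for which the study's table of names has no column, gave a second set of measurements of the strain difference. They came from the same animals, so they repeat the dissection and sequencing but not the rats. On the right, 849 of 14251 genes (5.96%) were called, 427 higher and 422 lower, and among 1251 named genes 354 (28.3%) were higher. With the right library of SHR rat 34 included, 239 genes were called, so the counts and shares below depend on leaving it out. Of 1289 left calls tested there, 1268 had the same direction and 584 were also called, which is 45.3% of the left calls and 69.3% of the 843 right calls tested on the left. All 584 had the same direction on both sides. The median size of the left calls was 0.50 on the left and 0.41 on the right, on the log2 scale and in the left direction. Of the 234 left calls of at least 2-fold tested on the right, 177 were called there too. Chodl had a right log2 fold change of 3.44 ± 0.15, Cdh9 of 2.51 ± 0.19, Ephx2 of 2.54 ± 0.14 and Glp1r of -4.19 ± 0.33 (SE, n = 6 and 5; edgeR adjusted p of 6.32e-10, 1.46e-06, 1.54e-08 and 7.05e-07).

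**Figure D5:**
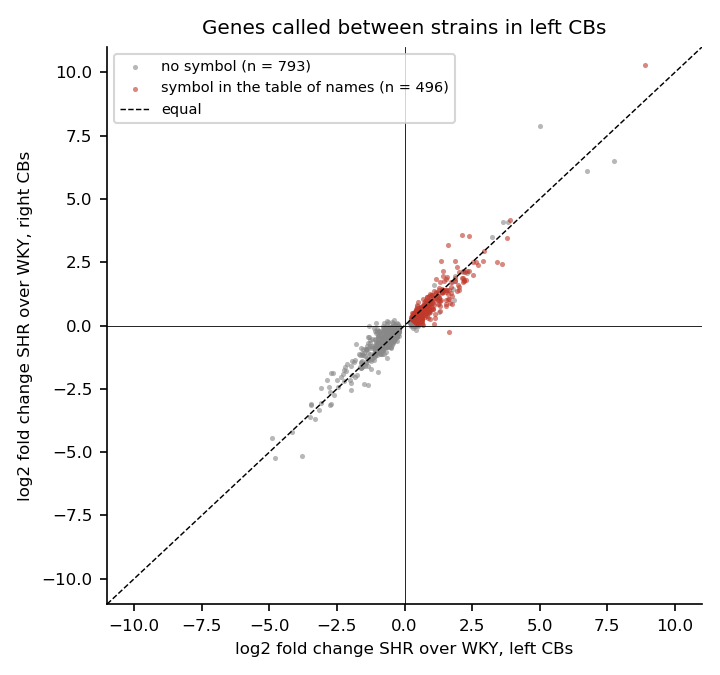
Log2 fold change of SHR over WKY in left CBs (horizontal) and right CBs (vertical) for the 1289 genes called in left CBs and tested on both sides, 496 with a symbol in the table of names and 793 without, with a dashed line where both are equal. In 1268 of the 1289 genes both values have the same sign.

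Whether the strain difference itself differed between sides was tested with the rat as a block in 11 rats. Of 14271 genes, 0 passed edgeR's test (0.0%), the lowest adjusted p was 0.972, and 641 genes (4.49%) had an unadjusted p under 0.05. limma's voom, in which the rat was a random effect, called 0 and had 655 such genes. Of the 1290 left calls tested by edgeR for the difference between sides, 133 had an unadjusted p under 0.05. These genes were picked by their left values, so that count is not a test. The named gene with the smallest unadjusted p was Npnt, nephronectin, a matrix ligand of integrins. It was at 4.05, 6.28 and 7.68 CPM in WKY and 4.87, 5.598 and 6.11 CPM in SHR on the left, where the strains overlapped, and its strain difference was lower on the left than on the right by -0.96 ± 0.25 (log2, SE; unadjusted p = 0.00135, edgeR adjusted p = 0.972). Asmtl and AA926063 were called on the left, at 0.50 ± 0.10 and 1.65 ± 0.37, and had 0.08 ± 0.11 and -0.25 ± 0.45 on the right (SE). Tm4sf19, Arxes2 and Cd72 had larger values on the right, and none of the 6 passed the adjusted test of the difference. Dbh, not called on the left, was called on the right at 0.95 ± 0.19 (SE, edgeR adjusted p = 0.00821), and for it the difference between sides did not pass either (unadjusted p = 0.0172, edgeR adjusted p = 0.972).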

How the data were processed

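Paired-end, strand-marked libraries of polyadenylated RNA were made from left and right CBs. The authors used STAR for alignment and featureCounts for counting, and deposited raw read counts per Ensembl gene. Versions, build, annotation, strand and multi-mapping settings are not given in the sources used here. DESeq2 and FastQC are also named in the submitters' processing notes. The tables of fold changes that accompany the study hold the authors' own comparisons: identifiers and symbols were read from one of them, and its values were not used, except that Glp1r, Insr and Gipr were identified by the values printed for them.

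Counts of the 12 left libraries were analysed with edgeR 4.0.16 in R 4.3.3 (TMM scaling, robust quasi-likelihood F-test, strain as the only term, mean normalized count above 10, Benjamini-Hochberg adjustment at 0.05). A 2-fold change means an absolute log2 fold change of at least 1. DESeq2 1.42.0 and limma 3.58.1 (voom) were alternatives, as were DESeq2's size factors, no filter, filterByExpr, a block for the replicate number, and fits without each rat. The right side and the difference between sides were fitted likewise, the latter with the rat as a block. Tables used pandas 2.3.3 and figures matplotlib 3.10.9. CPM is TMM-normalized. Permutation tests are exact and two-sided. The tests were also run on simulated counts with known changes, and the outcome is not given here. All 66 pairs of left libraries were compared, and none was alike within sampling noise (lowest chi-square per degree of freedom 5.27).

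The comparison, gene lists and tests were chosen with earlier results of these data known. A list's share above that of all named genes is therefore no independent support. Named genes were up to 4 members per list by adjusted p, the first member of each list, the 12 largest non-overlapping changes with a symbol, 2 rises and 2 falls without one, the 6 smallest p-values for the difference between sides, and Glp1r, Insr and Gipr. Of 1273 symbols, 1255 matched RefSeq GRCr8 by Entrez identifier. The numbers 33, 34, 36 and 37 recur across strains as names of rats in the labels, and whether they also mark pairs cannot be told. A glomus cell gene is not reported here, and the list's counts leave it out.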

Additional observations from a re-analysis of the deposited data

Results flagged for a closer look

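Of 289 sets of 6 values (the named genes, the summed gene lists and both component scores, each within a strain), 22 had a rat whose gap to the next exceeded Dixon's critical value. Chance flags about 1 in 20 such sets. In WKY, rat 32 was far above the others for Tg (10.7 CPM against 0.097 to 1.15) and Agtr2 (211 CPM against 166 to 178), and below them for Loxl1 (24.3 CPM against 31.9 to 35.6). WKY rat 33 had the second component score of -12.5. WKY rat 37 was highest for Pmp2, alone the summed glial list, at 6.96 CPM, and WKY rat 41 was highest for Slc8a2 (11.8 CPM) and the summed peptides (542 CPM) and lowest for the summed lymphocyte markers (72.9 CPM).

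In SHR, rat 30 was highest for Pmp2 (21.6 CPM against 1.23 to 7.42), which is again the summed glial list, and lowest for Rasip1 (75.3 CPM). SHR rat 31 was highest for Cd6 (6.5 CPM against 1.48 to 2.48) and lowest for Kcnt2 (5.12 CPM). SHR rat 33 was highest for Zbtb16 (38.9 CPM against 2.13 to 8.11), a glucocorticoid-induced gene, and for ENSRNOG00000061943 (0.551 CPM). SHR rat 34 was lowest for Col6a1 (145 CPM) and highest for the summed skeletal muscle genes (105 CPM against 77.5 to 86.2). SHR rat 36 was lowest for Nrcam (99.5 CPM), and SHR rat 37 was lowest for Cthrc1 (13.9 CPM) and highest for Kcna3 (3.75 CPM) and Prelp (209 CPM).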

How the results depend on the processing

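The count of left calls was within 1.5 times 1292 under every alternative run: 1280 with DESeq2's size factors, 1684 with DESeq2, 1290 with voom, 1267 without a filter, 1292 with filterByExpr and 962 to 1630 with a rat left out. Calls of at least 2-fold ran from 211 to 293 with a rat left out (237 with all), and were 268 with DESeq2 and 307 without a filter. The first component difference ran from 11.7 to 14.4 with a rat left out. The replicate block gave 913 left calls and 221 of at least 2-fold. The correlation of deviations between rats of the same number was -0.098 to 0.0776. Between the left and right CB of a rat, a known pairing, it was -0.0535 to 0.282, with a median of 0.117. These ranges overlap, so the check cannot tell whether the numbers pair rats. Right calls were 239 with the library of SHR rat 34 and 49 with a replicate block; the cause was not tested. The difference between sides gave 0 calls in every alternative. Of the 90 named genes called on the left, 90 kept the call with DESeq2 and with its size factors, 86 with voom, 85 without a filter, 79 with the replicate block, and 78 to 87 with a rat left out; no called gene changed direction. Signs turned only for genes that were not called. Over fits without a rat, Actg1 ran from -0.0279 to 0.174, Tg from -0.0312 to 2.75 and Cd72 from -0.291 to 0.238. Actg1 had -0.0237 and Npnt 0.0179 under the replicate block, and Cd72 -0.182 with voom. Genes near 3 counts per library are limited by depth.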
